A study of Homo sapiens with 13 samples.

Results

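The genes described here are 47 genes of DNA replication and S phase: the subunits of the MCM helicase, the factors that load and fire it, the sliding clamp with its loader, the replicative polymerases, primase and the single-strand binding protein RPA, enzymes of lagging-strand maturation and nucleotide supply, chromatin assembly and fork proteins, and 4 regulators of S-phase entry. Members are the rows whose symbol is in a list, which was drawn up with earlier results of these data known, and each of the 47 symbols matched 1 of the 38369 gene rows in each of 2 tables. The study profiled polyA RNA of MCF10A, a line of spontaneously immortal human breast epithelial cells that do not form tumours (the labels give its cell type as breast cancer), in 2 experiments. In the first, parental MCF10A cells that were mock transduced, called untransduced (3 libraries), were compared with cells transduced with the long intergenic RNA LINC00520 (2 libraries), all taken 72 h later. In the second, MCF10A-Src cells, which carry a Src kinase that is turned on by adding tamoxifen, were profiled at 0 h (1 library), 4 h (2), 12 h (1) and 36 h (2) of tamoxifen. All cells grew in medium with equine serum, hydrocortisone, cholera toxin, EGF and insulin. The 2 libraries of a control long intergenic RNA were not analysed here, so an effect of LINC00520 and an effect of transduction cannot be told apart. No untreated culture of 4, 12 or 36 h was analysed here, so Src activation, tamoxifen and time in culture cannot be told apart either.

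DNA replication is prepared in G1, when CDC6 and CDT1 help to place the ring-shaped MCM helicase on origins, and starts in S phase when MCM10 and the GINS complex help to activate it. The clamp PCNA, put on DNA by replication factor C (the RFC subunits), then tethers the polymerases to the template. Many of these genes are transcribed at the border of G1 and S by E2F factors, which the RB protein holds back until cyclin-dependent kinases act. A high summed level of such transcripts is used as a sign of cycling cells.

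Depth ran from 12.6 M to 52.3 M fragments a library. The LINC00520 row (named linc-TBPL2-2 in the tables) held 5, 6 and 2 fragments in the untransduced libraries and 1122 and 1031 in the transduced ones, as labelled. It held 91 fragments at 0 h, 30 and 22 at 4 h, 415 at 12 h, and 3346 and 2124 at 36 h. The 9 basal breast epithelial markers summed to between 3698 and 6606 FPKM (fragments scaled to transcript length and library depth) in every library. The endothelial marker CDH5 was listed at 0 in all 11, and CDH5 and VWF together reached 0.0153 FPKM at most. PECAM1, a further endothelial marker, matched no row. ESR1, whose ligand-binding part is used to make proteins switchable by tamoxifen, stood between 623 and 1561 FPKM in the Src line and between 0.139 and 0.492 FPKM in the parental cells.

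A motif in the promoters was searched for, which the choice of members did not use. RefSeq promoter sequence (GRCh38.p14) was at hand for 40 of the 47 genes (all but MCM4, MCM5, GINS4, POLD3, RPA2, RPA3 and CCNE2), and the 250 bases before the annotated start were searched on both strands for 4 forms of the E2F motif, TTTCCCGC, TTTGGCGC, TTTCGCGC and TTTGCCGC. At least 1 of them lay in the window of 17 of the 40 genes (42.5%), against 3.4% of all 27305 genes in the same table, 22.6% of 31 other replication genes and 12.5% of 24 mitosis genes. The genes with a match were MCM3, MCM6, MCM7, CDT1, GINS2, PCNA, RFC3, POLA1, POLA2, POLE, LIG1, TYMS, DUT, UNG, TIPIN, E2F1 and CDC25A. The windows of the 4 of them with the highest log2 fold change after LINC00520 transduction follow, printed 5′ to 3′ on the strand of the gene with the motif in capitals, because they show where the motif sits relative to the start, which is the end of each window.
GINS2 (chr16:85688955-85689204, minus strand): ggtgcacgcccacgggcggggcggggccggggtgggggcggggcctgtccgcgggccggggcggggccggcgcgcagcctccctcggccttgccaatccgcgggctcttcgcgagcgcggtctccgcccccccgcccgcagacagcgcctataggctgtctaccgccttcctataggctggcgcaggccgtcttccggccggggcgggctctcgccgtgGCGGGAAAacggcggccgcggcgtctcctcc
POLA2 (chr11:65261712-65261961, plus strand): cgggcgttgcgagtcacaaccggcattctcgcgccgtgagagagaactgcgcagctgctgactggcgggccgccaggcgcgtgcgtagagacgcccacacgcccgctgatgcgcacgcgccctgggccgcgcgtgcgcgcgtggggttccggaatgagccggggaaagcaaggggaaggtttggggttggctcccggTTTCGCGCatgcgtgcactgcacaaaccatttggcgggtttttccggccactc
E2F1 (chr20:33686386-33686635, minus strand): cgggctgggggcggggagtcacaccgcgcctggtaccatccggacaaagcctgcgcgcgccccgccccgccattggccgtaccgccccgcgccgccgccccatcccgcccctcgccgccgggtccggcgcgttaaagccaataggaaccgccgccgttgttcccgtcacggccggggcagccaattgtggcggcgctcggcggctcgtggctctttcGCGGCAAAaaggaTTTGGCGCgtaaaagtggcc
PCNA (chr20:5126623-5126872, minus strand): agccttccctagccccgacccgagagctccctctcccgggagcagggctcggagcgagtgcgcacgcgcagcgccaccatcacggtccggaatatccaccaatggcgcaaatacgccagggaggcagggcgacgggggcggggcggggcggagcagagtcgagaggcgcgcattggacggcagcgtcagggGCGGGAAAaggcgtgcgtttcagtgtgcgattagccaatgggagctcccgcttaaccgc
In E2F1 itself, the factor that gives the motif its name, 2 motifs lay 33 and 20 bases before the start (counted from the motif's first base). In GINS2 the motif began 31 bases before the start, in POLA2 53 and in PCNA 59. A match is a description of letters and not of binding. After LINC00520 transduction the median log2 fold change was 0.56 in the 17 genes with a match (0.26 to 0.82) and 0.64 in the 23 without (0.06 to 1.18). At 36 h against 4 h of tamoxifen the medians were -0.81 (17 genes, -2.19 to -0.00099) and -0.47 (22 genes, -1.65 to 1.01). No test was made between these groups.

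After transduction with LINC00520, replication transcripts rose almost without exception. By edgeR's quasi-likelihood test with Benjamini-Hochberg adjustment over all 12790 genes tested, 45 of the 47 genes were higher at an adjusted p under 0.05 and 0 were lower, against 25.2% of all genes called higher and 24.8% called lower. The median log2 fold change of the 47 was 0.62, against 0.00 over all genes. A rise of at least 1.5-fold was called for 26 of the 47 genes, against 2.25% of all genes. In counts scaled to library depth, both LINC00520 libraries lay above the 3 untransduced ones for all 47 genes, a pattern found in 33.2% of all genes tested. In FPKM this did not hold for RPA3, at 38.3 in replicate 2 of LINC00520 and 40.1, 41.9 and 39.1 untransduced. In bulk RNA, more cells in S phase and more of these transcripts per cell cannot be told apart. Nothing in the labels says that libraries of a group came from separate cultures, so the p-values reflect only how far these libraries differ, and that may be technical.

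**Figure D1:**
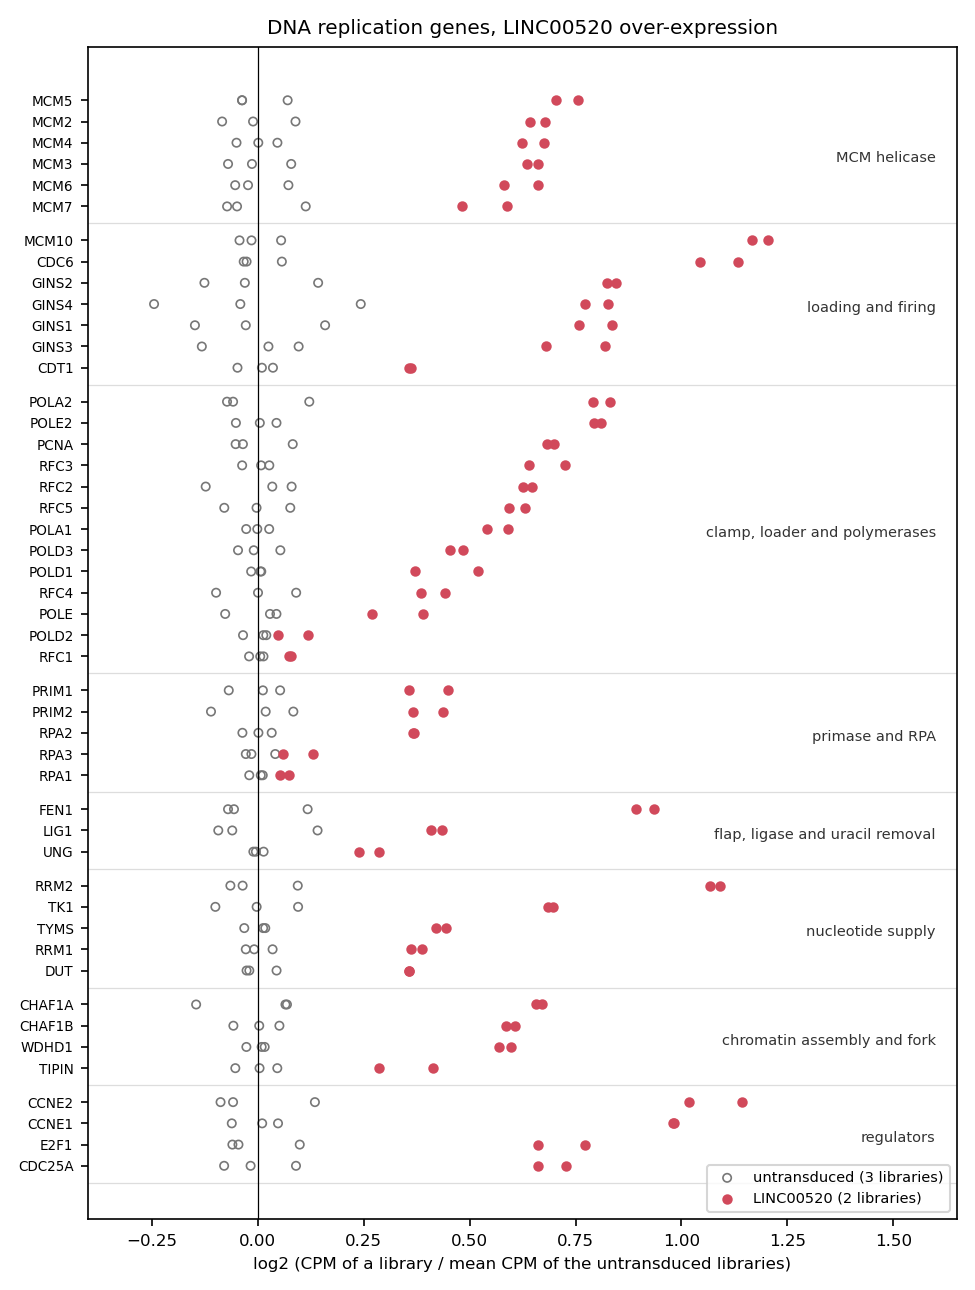
Level of each replication gene in each library of the over-expression experiment, as the log2 ratio of its CPM to the mean CPM of the 3 untransduced libraries, with genes grouped by role. Open circles are the untransduced libraries and filled circles the 2 LINC00520 libraries, which lie to the right of all open circles for every gene and farthest for MCM10, CDC6, RRM2 and CCNE2.

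The largest rises were those of MCM10 (log2 1.18), CDC6 (1.08), RRM2 (1.08) and CCNE2 (1.07). CDC6, the ATPase that recruits the helicase to origins, measured 36.0, 34.0 and 33.9 CPM (counts scaled to library depth with edgeR's TMM factors) in the untransduced libraries and 71.4 and 76.0 CPM in the LINC00520 libraries. That was 2.12-fold (log2 1.08, SE 0.05, edgeR adjusted p = 4.90e-15), with a wide gap between the groups. The smallest called rises were those of RFC1 (log2 0.08), POLD2 (0.08), UNG (0.26) and POLE (0.33).

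The 6 subunits of the MCM2-7 helicase, which unwinds the template, moved together. All 6 rose, with log2 fold changes of 0.73 for MCM5, 0.66 for MCM2, 0.65 for MCM3, 0.65 for MCM4, 0.62 for MCM6 and 0.53 for MCM7. MCM5, the highest, measured 63.9, 59.4 and 59.3 CPM untransduced and 99.1 and 103 CPM with LINC00520 (SE 0.04, edgeR adjusted p = 2.69e-13). MCM7, the lowest of the 6, measured 166, 148 and 146 CPM untransduced and 214 and 231 CPM with LINC00520 (SE 0.04, edgeR adjusted p = 2.07e-10). The interval listed for the MCM7 row overlaps those of AP4M1, CNPY4 and TAF6. The strand setting of the counting was not given in the sources used here, so fragments of the MCM7 row may in part be theirs. The same holds for the rows of MCM2, MCM5, CDC6, GINS3, GINS4, RFC3, POLA1, POLA2, POLE and CCNE1, whose intervals overlap those of antisense long intergenic RNAs. A listed interval can span neighbouring genes (KRT14 and KRT17 have the same one), so overlapping intervals need not mean overlapping transcripts.

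All 7 factors that load and fire the helicase rose as well, with a median log2 fold change of 0.79. MCM10, which stays with the helicase at the fork (hg19 chr10:13203581-13253100), measured 19.2, 17.9 and 18.3 CPM untransduced and 41.5 and 42.6 CPM with LINC00520 (2.27-fold, log2 1.18, SE 0.05, edgeR adjusted p = 8.82e-15). The 4 GINS subunits, which form part of the active helicase, rose by a similar amount, with log2 fold changes of 0.82 for GINS2, 0.79 for GINS1, 0.78 for GINS4 and 0.76 for GINS3. CDT1, the partner of CDC6 in loading, had the smallest rise in the group. It measured 32.3, 30.5 and 31.7 CPM untransduced and 40.3 and 40.5 CPM with LINC00520 (log2 0.36, SE 0.05, edgeR adjusted p = 2.59e-06).

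The clamp, its loader and the replicative polymerases spanned a wider range, though all 13 rose. PCNA, the clamp (hg19 chr20:5095600-5107268), measured 148, 135 and 137 CPM untransduced and 225 and 227 CPM with LINC00520 (log2 0.69, SE 0.04, edgeR adjusted p = 9.90e-14). Of the loader, the small subunits RFC3 (log2 0.68), RFC2 (0.64), RFC5 (0.61) and RFC4 (0.41) had higher values than the large subunit RFC1 (hg19 chr4:39289076-39367995). RFC1 measured 135, 138 and 139 CPM untransduced and 145 CPM in both LINC00520 libraries, a rise of 1.06-fold (log2 0.08, SE 0.03, edgeR adjusted p = 0.0437). The RFC2 row is shared with WBSCR27, and its listed interval overlaps 16 other rows, those of CLDN4 and EIF4H among them.

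The polymerase subunits spread over the whole range of the group. POLA2, the regulatory subunit of the polymerase that extends primers, stood at the top of the group. It measured 22.8, 19.9 and 20.1 CPM untransduced and 37.3 and 36.2 CPM with LINC00520 (log2 0.80, SE 0.06, edgeR adjusted p = 5.84e-11). The catalytic POLA1 rose by a log2 fold change of 0.56. Of polymerase epsilon, which copies the leading strand, the catalytic POLE rose by 0.33 and the second subunit POLE2 by 0.80. Of polymerase delta, which copies the lagging strand, POLD3 rose by 0.47, the catalytic POLD1 by 0.45 and POLD2 by 0.08. The listed intervals of the POLE2 and POLD1 rows overlap 8 and 6 other rows.

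Primase and RPA had the lowest median of the roles, with 3 of 5 called higher and a median log2 fold change of 0.37. Primase makes the RNA primers, and both its subunits rose. PRIM1 measured 19.3, 18.2 and 19.8 CPM untransduced and 26.1 and 24.5 CPM with LINC00520 (log2 0.41, SE 0.06, edgeR adjusted p = 5.00e-06), and PRIM2 rose by a log2 fold change of 0.39. RPA coats single-stranded DNA in replication and in repair alike. Of its 3 subunits RPA2 rose by a log2 fold change of 0.37, while RPA1 and RPA3 did not pass the test. RPA1 measured 145, 144 and 142 CPM untransduced and 149 and 151 CPM with LINC00520 (log2 0.06, SE 0.03, edgeR adjusted p = 0.103). RPA3 measured 26.0, 27.2 and 26.2 CPM untransduced and 29.0 and 27.6 CPM with LINC00520 (log2 0.10, SE 0.05, edgeR adjusted p = 0.140).

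Among the enzymes that finish the lagging strand and remove uracil, FEN1, the nuclease that trims flaps between fragments, rose most. It measured 49.1, 43.5 and 43.1 CPM untransduced and 84.0 and 86.6 CPM with LINC00520 (1.87-fold, log2 0.91, SE 0.05, edgeR adjusted p = 1.91e-13). LIG1, the ligase that seals them, rose by a log2 fold change of 0.41. UNG, which cuts uracil out of DNA, measured 64.8, 65.0 and 65.9 CPM untransduced and 76.9 and 79.5 CPM with LINC00520 (log2 0.26, SE 0.04, edgeR adjusted p = 3.42e-06).

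All 5 genes of nucleotide supply rose, and the 2 subunits of ribonucleotide reductase, which makes deoxynucleotides, did so unequally. RRM2, the small subunit, measured 121, 108 and 110 CPM untransduced and 237 and 241 CPM with LINC00520 (2.11-fold, log2 1.08, SE 0.04, edgeR adjusted p = 4.85e-17), the smallest p of the 47. RRM1, the large subunit, rose by a log2 fold change of 0.37. Thymidine kinase TK1 rose by 0.68 and thymidylate synthase TYMS by 0.43. DUT, which keeps dUTP out of DNA, measured 86.7, 91.0 and 87.1 CPM untransduced and 113 CPM in both LINC00520 libraries (log2 0.36, SE 0.03, edgeR adjusted p = 7.32e-09). The interval listed for the TYMS row overlaps that of its neighbour ENOSF1 and those of C18orf56 and CLUL1.

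The 4 chromatin assembly and fork genes rose. CHAF1A, the large subunit of the factor that deposits histones behind the fork, measured 34.6, 29.8 and 34.5 CPM untransduced and 51.9 and 52.4 CPM with LINC00520 (log2 0.66, SE 0.06, edgeR adjusted p = 8.84e-10). CHAF1B, its partner, rose by a log2 fold change of 0.60 and WDHD1, which links helicase and polymerase, by 0.58. TIPIN, part of the complex that protects forks, measured 13.7, 13.3 and 12.8 CPM untransduced and 16.2 and 17.7 CPM with LINC00520 (log2 0.34, SE 0.07, edgeR adjusted p = 0.000287).

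All 4 regulators rose at least 1.5-fold, the highest median of any role (log2 0.84). CCNE2, 1 of the 2 cyclin E genes, measured 8.33, 7.29 and 7.14 CPM untransduced and 15.4 and 16.8 CPM with LINC00520 (2.09-fold, log2 1.07, SE 0.08, edgeR adjusted p = 2.42e-10). CCNE1, the other, rose by a log2 fold change of 0.98 and E2F1 by 0.71. CDC25A, the phosphatase that frees the cyclin-dependent kinases, measured 26.9, 25.0 and 23.9 CPM untransduced and 40.0 and 41.9 CPM with LINC00520 (log2 0.69, SE 0.06, edgeR adjusted p = 2.99e-10).

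Per transcript length, the regulators were among the scarcest of the 47. In untransduced cells PCNA was the most abundant at 115 ± 5.85 FPKM (SD, n = 3), followed by POLD2 at 96.2 ± 1.98 and RRM1 at 65.8 ± 1.25. The lowest were GINS4 at 1.53 ± 0.232, E2F1 at 2.83 ± 0.173, CCNE2 at 2.97 ± 0.239 and CCNE1 at 3.75 ± 0.141 FPKM, of which E2F1 and CCNE2 did not differ by more than their spread. At 0 h PCNA (68.8 FPKM) and RRM1 (68.7 FPKM) were nearly level, at 4 h POLD2 led (89.7 ± 25.6 FPKM, SD, n = 2, against 75.2 ± 12.5 for PCNA, within their spread), and at 12 h PCNA led (101 FPKM). PCNA was the seventh at 36 h, at 27.2 ± 2.92 FPKM (SD, n = 2), when RRM1 (56.9 ± 1.12) led.

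Other lists of the cell cycle moved the same way in this experiment, where 25.2% of all genes were called higher and 24.8% lower. Of 37 other replication genes, 32 were higher and 1 lower, with a median log2 fold change of 0.42. Among them CLSPN, an adaptor of the replication checkpoint, rose by 1.25 (SE 0.07, edgeR adjusted p = 1.68e-13) and UHRF1, which helps to maintain DNA methylation, by 0.77 (SE 0.04, edgeR adjusted p = 1.40e-13). The 1 that fell was POLD4, the smallest subunit of polymerase delta (log2 -0.31, SE 0.07, edgeR adjusted p = 0.000937). All 30 mitosis genes were higher, with a median of 0.49. Those with the smallest p were CDK1 (0.69, SE 0.03, edgeR adjusted p = 6.63e-14) and KIF23 (0.70, SE 0.04, edgeR adjusted p = 1.43e-13). Of 23 tested regulators of the E2F, RB and G1-S network, 15 were higher and 3 lower. CCNA2 (0.62) and E2F7 (0.86) rose, and CDKN1A (-0.17), which encodes the kinase inhibitor p21, RBL2 (-0.26), an RB relative, and MYC were lower, MYC being named after its value was seen. The replication genes were thus not alone in rising, and no test compared the lists. Among cell-type markers, 5 of the 9 basal epithelial genes were higher and 1 lower, and the 9 summed to between 3698 and 3825 FPKM untransduced and to 4143 and 4257 FPKM with LINC00520. The fibroblast markers summed to between 13.3 and 13.8 FPKM in all 5 libraries, and the immune and blood markers to between 6.39 and 7.96 FPKM untransduced and to 4.86 and 4.53 FPKM with LINC00520. The part of these differences in the rise of the replication genes was not tested.

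In the refits under other settings between 43 and 44 of the 47 genes were higher and 0 lower, and RFC1 and POLD2 were the genes that lost their call in some of them. In the authors' deposited table of calls 41 of the 47 genes were higher and 0 lower, against 6.61% higher and 6.26% lower of all its 14753 genes with an OK status, and RFC2 and POLE2 were not called there either. Called in every refit and in the authors' deposited table were 41 of the 45.

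In the tamoxifen time course most replication genes were highest at 12 h and lowest at 36 h. Of the 46 genes that could be tested, 40 had their highest level in the 12 h library, a pattern found in 13.5% of all 15572 genes tested, and 34 had their lowest levels in both 36 h libraries, against 26.0%. Both held for 31 of the 46, against 5.26% of all genes. RFC1 was the 1 gene for which both 36 h libraries lay above the other 4, against 23.0% of all genes. POLE2 could not be tested, since its row, whose interval overlaps 8 other rows, that of the ribosomal protein gene RPS29 among them, lacked an OK status in the deposited table and was listed at 0 in every time-course library. Since 0 h and 12 h had 1 library each, their spread was taken from the 4 h and 36 h pairs, and the 5 comparisons share libraries. Without scaling between libraries 42 of 46 were highest at 12 h (17.5% of all genes) and 40 lowest at 36 h (42.3% of all genes). In deposited FPKM the counts were 39 (12.1%) and 35 (23.3%), both settings being chosen after the data were seen.

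**Figure D2:**
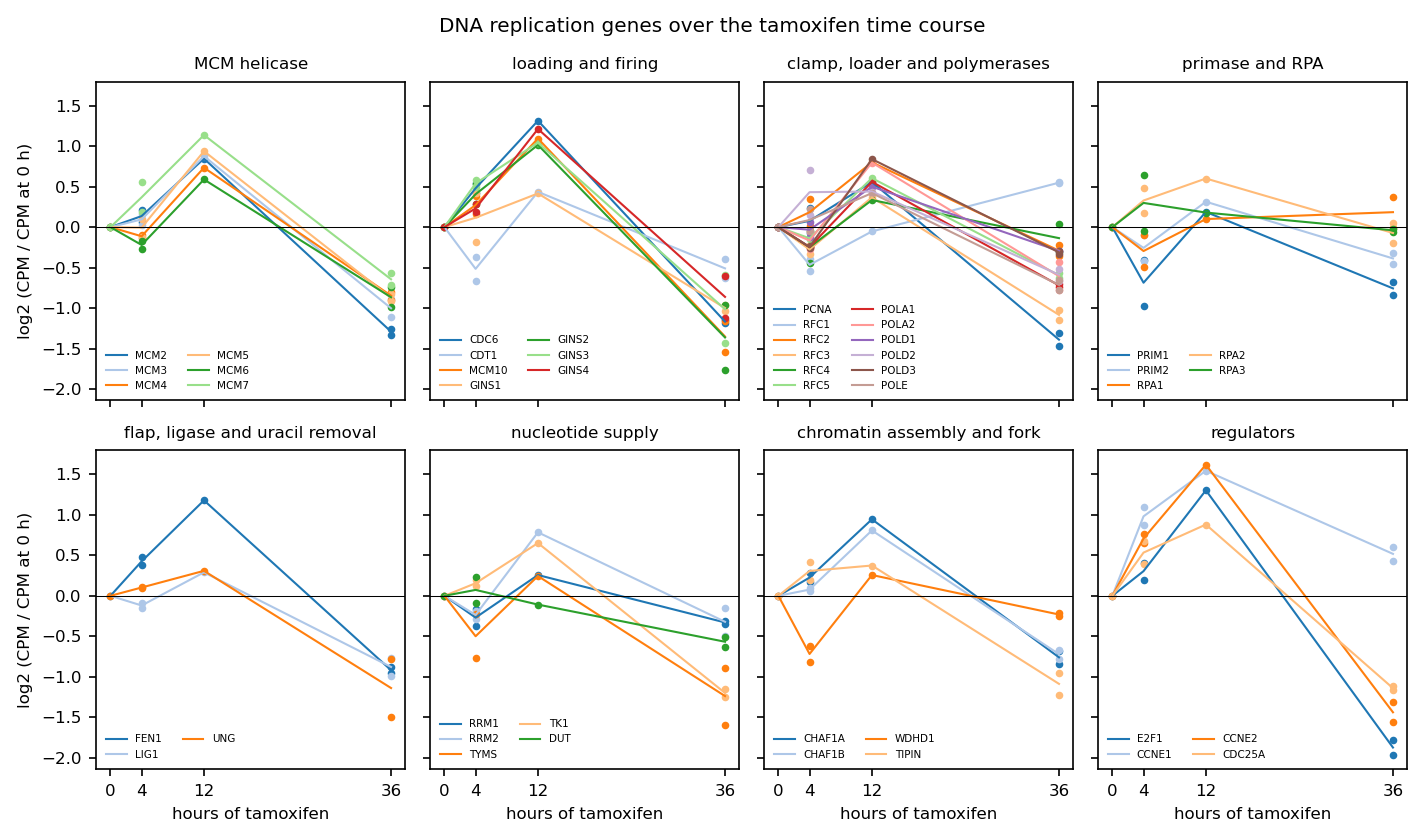
Level of each replication gene over the tamoxifen time course, as the log2 ratio of its CPM to that of the 0 h library, against hours of tamoxifen, with 1 panel for each role; points are libraries and lines join the means of each time. Most lines peak at 12 h and end below 0 at 36 h, E2F1 ends lowest, and the lines of RFC1, CCNE1 and RPA1 end above their 0 h level.

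At 4 h no replication gene passed the test against 0 h. edgeR called 0 higher and 0 lower of 46 (background 3.15% higher, 3.09% lower), with 7 at an unadjusted p under 0.05, of which 4 were higher, and DESeq2 and limma also called 0. The median log2 fold change was 0.09. The cyclin E genes had the highest values, 0.99 for CCNE1 (SE 0.25, edgeR adjusted p = 0.0611) and 0.71 for CCNE2 (SE 0.23, edgeR adjusted p = 0.113), and WDHD1 the lowest, -0.71 (SE 0.19, edgeR adjusted p = 0.0680). The 4 h libraries differed from each other most: the median chi-square per gene was 13.7 times that of counting noise, against 4.65 times for the 36 h pair. With either 4 h library left out, the calls over all genes rose as well, so the counts of those refits are not given.

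At 12 h 6 genes were higher than at 0 h and 0 lower, against 3.04% of all genes higher and 1.2% lower, and the median log2 fold change was 0.60, against -0.03 over all genes. The 6 were CCNE2 (1.62), CCNE1 (1.54), CDC6 (1.31), E2F1 (1.30), FEN1 (1.18) and MCM7 (1.14). CCNE2 stood at 12.3 CPM at 0 h and 37.6 CPM at 12 h (3.07-fold, SE 0.26, edgeR adjusted p = 0.0142). CDC6 stood at 37.3 and 92.7 CPM (2.48-fold, SE 0.22, edgeR adjusted p = 0.0166). E2F1 stood at 8.83 and 21.8 CPM (2.47-fold, SE 0.28, edgeR adjusted p = 0.0419). Regulators thus took 3 of the 6 calls, while the 5 genes of primase and RPA lay between 0.10 and 0.60 and those of nucleotide supply between -0.11 and 0.78. With 1 library at each time, the count of calls moved between settings. It was 11 with DESeq2 (634 of all 15572 genes higher) and 16 without the filter on low levels (1026 of 28470). With limma it was 1 on log2(FPKM + 1) (150 of 15572) and 0 on log2(FPKM + 0.1) (174 of 15572). Without a 4 h library the calls over all genes rose as well, and the counts of those refits are not given. None of the 6 calls held under every setting.

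From 12 h to 36 h the fall was broad. At 36 h 37 of 46 genes were lower than at 12 h and 0 higher, against 10.5% and 10.3% of all genes, with a median log2 fold change of -1.41 against -0.02 over all genes. The lowest values were those of E2F1 (-3.18, SE 0.26, edgeR adjusted p = 0.00111), CCNE2 (-3.06, SE 0.23, edgeR adjusted p = 0.000892), CDC6 (-2.48) and MCM10 (-2.42). All 6 MCM2-7 subunits, all 7 loading and firing factors and all 4 regulators were called lower. The called genes that fell least were POLD1 (-0.79), PRIM1 (-0.94), CDT1 (-0.94) and CCNE1 (-1.02). The 9 that did not pass were RFC1 (0.60), RFC4 (-0.46), PRIM2 (-0.70), RPA1 (0.10), RPA2 (-0.66), RPA3 (-0.22), RRM1 (-0.59), DUT (-0.46) and WDHD1 (-0.49). Of the 37 calls, 20 held in every refit and in the authors' deposited table. With limma on log2(FPKM + 0.1) 20 of the 46 genes were called lower, against 249 of all 15572 genes. With no scaling between libraries the median of all genes moved to -0.33 and the calls over all genes from 1609 higher and 1641 lower to 836 and 3275, while 42 of the 46 were lower.

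At 36 h the level was also below that before tamoxifen. Against 0 h, 23 of 46 genes were lower and 0 higher (background 9.36% lower, 9.99% higher), with a median log2 fold change of -0.75 against -0.08 over all genes. The lowest were E2F1 (-1.88, SE 0.26, edgeR adjusted p = 0.00244), CCNE2 (-1.45), PCNA (-1.39) and GINS2 (-1.35), and the called genes that fell least were POLE (-0.71), POLA1 (-0.72), CHAF1A (-0.76) and MCM4 (-0.85). The highest values were those of RFC1 (0.55, SE 0.18, edgeR adjusted p = 0.0737) and CCNE1 (0.53, SE 0.25, edgeR adjusted p = 0.185), which did not pass. The count of lower genes was 9 and 8 with limma, where 539 and 415 of all 15572 genes were lower at pseudocounts of 1 and 0.1. It was 39 with no scaling between libraries. There the median of all genes itself moved to -0.43 and the calls over all genes from 1556 higher and 1458 lower to 1016 and 3740. With either 36 h library left out, fewer of the 46 genes and fewer of all genes were called lower. With either 4 h library left out, more of all genes were called in both directions. Called in every refit and in the authors' deposited table were MCM2, CDC6, PCNA, TK1 and E2F1.

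The comparison of 36 h with 4 h has 2 libraries on each side. There 28 of 46 genes were lower and 2 higher, against 20.5% and 18.8% of all 15572 genes, and the median log2 fold change was -0.77 against -0.04 over all genes. A fall of at least 1.5-fold was called for 27 genes, against 18.9% of all genes. The lowest were E2F1 (-2.19), CCNE2 (-2.15), GINS2 (-1.76) and CDC25A (-1.68). The 2 that rose were RFC1 (1.01) and WDHD1 (0.48). Of the 30 calls, 20 held in every refit and in the authors' deposited table. The calls of MCM4, MCM6, GINS4, RFC3, POLA1, POLE, LIG1, DUT, CHAF1B and WDHD1 were lost in at least 1 refit. With no scaling between libraries the median of all genes moved to -0.29 and the calls over all genes from 2930 higher and 3200 lower to 1861 and 4823, while 35 of the 46 were lower.

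All 6 helicase subunits fell. MCM2 measured 112 and 124 CPM at 4 h and 45.1 and 42.9 CPM at 36 h (log2 -1.43, SE 0.15, edgeR adjusted p = 0.000419). Its level was 108 CPM at 0 h and 193 CPM at 12 h, so both 36 h libraries were its lowest. MCM3 (-1.09), MCM7 (-1.02), MCM5 (-0.87) and MCM4 (-0.73) followed. MCM6 measured 76.9 and 71.9 CPM at 4 h and 43.7 and 51.7 CPM at 36 h (log2 -0.64, SE 0.16, edgeR adjusted p = 0.0164).

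Of the loading and firing factors 6 of 7 fell, with a median log2 fold change of -1.54. GINS2 measured 16.9 and 20.0 CPM at 4 h and 4.11 and 7.12 CPM at 36 h (log2 -1.76, SE 0.28, edgeR adjusted p = 0.00233). CDC6 (-1.65), MCM10 (-1.60), GINS3 (-1.54), GINS1 (-1.15) and GINS4 (-1.11) fell beside it. CDT1 measured 17.1 and 14.0 CPM at 4 h and 14.3 and 16.8 CPM at 36 h, and these libraries overlapped (log2 -0.00099, SE 0.20, edgeR adjusted p = 1.00). CDT1 thus had the log2 fold change nearest 0 of its group here and after LINC00520 transduction.

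In the clamp, loader and polymerase group 5 of 12 genes fell and 1 rose. PCNA measured 73.7 and 91.3 CPM at 4 h and 28.1 and 31.3 CPM at 36 h (log2 -1.48, SE 0.18, edgeR adjusted p = 0.000677). RFC1 went the other way, from 95.3 and 106 CPM at 4 h to 204 and 202 CPM at 36 h (2.02-fold, log2 1.01, SE 0.15, edgeR adjusted p = 0.00169), with 139 CPM at 0 h and 134 CPM at 12 h. Of the other loader subunits RFC3 fell (-0.81), and RFC2 (-0.49), RFC5 (-0.45) and RFC4 (0.11) did not pass. Of the polymerase subunits POLD2 (-1.04), POLE (-0.80) and POLA1 (-0.47) fell, and POLA2 (-0.44), POLD1 (-0.27) and POLD3 (-0.07) did not pass.

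None of the 5 primase and RPA genes passed the test between 4 h and 36 h, the median being -0.14. RPA1 measured 63.5 and 48.5 CPM at 4 h and 67.9 and 88.2 CPM at 36 h (log2 0.48, SE 0.20, edgeR adjusted p = 0.0953). RPA2 measured 32.6 and 40.5 CPM at 4 h and 29.9 and 25.3 CPM at 36 h (log2 -0.40, SE 0.19, edgeR adjusted p = 0.128). RPA3 (-0.38), PRIM2 (-0.14) and PRIM1 (-0.09) had libraries that overlapped between the times.

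The 3 genes of flap removal, ligation and uracil removal fell. FEN1 measured 54.9 and 58.9 CPM at 4 h and 23.0 and 21.8 CPM at 36 h (log2 -1.34, SE 0.16, edgeR adjusted p = 0.000664). LIG1 measured 41.1 and 43.2 CPM at 4 h and 26.9 and 23.1 CPM at 36 h (log2 -0.75, SE 0.17, edgeR adjusted p = 0.0102), and UNG fell by 1.18 on the log2 scale.

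Nucleotide supply split. TK1 measured 25.4 and 26.7 CPM at 4 h and 9.85 and 10.5 CPM at 36 h (log2 -1.36, SE 0.18, edgeR adjusted p = 0.00107), and DUT fell by 0.65 on the log2 scale. TYMS (-0.74, SE 0.29, edgeR adjusted p = 0.0725) did not pass. Both subunits of ribonucleotide reductase overlapped between the times. RRM1 measured 164 and 190 CPM at 4 h and 167 and 172 CPM at 36 h (log2 -0.06, SE 0.15, edgeR adjusted p = 0.770). RRM2, which had given the smallest p of the 47 after LINC00520 transduction, measured 136 and 127 CPM at 4 h and 110 and 139 CPM at 36 h (log2 -0.08, SE 0.17, edgeR adjusted p = 0.748), with 155 CPM at 0 h and 266 CPM at 12 h.

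Of the chromatin assembly and fork genes TIPIN, CHAF1A (-0.99) and CHAF1B (-0.79) fell. TIPIN measured 10.1 and 11.9 CPM at 4 h and 4.59 and 3.80 CPM at 36 h (log2 -1.38, SE 0.23, edgeR adjusted p = 0.00282). WDHD1 rose from 32.6 and 37.4 CPM at 4 h to 48.2 and 49.7 CPM at 36 h (log2 0.48, SE 0.16, edgeR adjusted p = 0.0464), levels that lay below its 57.4 CPM at 0 h. The rise of WDHD1 was lost with no scaling between libraries, with limma, without the filter on low levels, without replicate 1 of 4 h (edgeR adjusted p = 0.0692) and without replicate 1 or 2 of 36 h (0.204 and 0.255). RFC1 was called higher in all of these.

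The regulators had the lowest median of any role (-1.92), and 3 of the 4 fell. E2F1 measured 11.7 and 10.1 CPM at 4 h and 2.27 and 2.56 CPM at 36 h (0.219-fold, log2 -2.19, SE 0.23, edgeR adjusted p = 0.000396). CCNE2 fell from 20.8 and 19.3 CPM to 4.15 and 4.93 CPM (log2 -2.15, SE 0.21, edgeR adjusted p = 0.000254). CCNE1 measured 10.4 and 12.2 CPM at 4 h and 8.70 and 7.69 CPM at 36 h (log2 -0.46, SE 0.21, edgeR adjusted p = 0.116), above its 5.71 CPM at 0 h. In FPKM, which allows the 2 cyclin E genes to be compared, CCNE2 stood above CCNE1 at 0 h (5.35 against 3.14) and at 12 h (17.0 against 9.35). At 36 h the order was the reverse, with CCNE2 at 1.78 and 1.95 FPKM and CCNE1 at 5.16 and 4.70 FPKM. The interval listed for the CCNE2 row overlaps that of INTS8.

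The falls at 36 h stood beside changes in cell-type markers. Of the 9 basal epithelial markers 6 were lower at 36 h than at 4 h and 1 higher, against 20.5% and 18.8% of all genes. KRT5 stood at 2718 and 2776 FPKM at 4 h and 1063 and 1022 FPKM at 36 h. Of the fibroblast markers DCN stood at 18.3 and 21.1 FPKM at 4 h and 58.0 and 77.5 FPKM at 36 h, while COL1A2 was listed at 0 in every time-course library and COL1A1 reached 0.497 FPKM at most. The 5 fibroblast markers summed to between 18.3 and 30.7 FPKM up to 12 h and to 59.4 and 78.9 FPKM at 36 h. The immune and blood markers summed to between 5.01 and 8.85 FPKM up to 12 h and to 13.0 and 15.7 FPKM at 36 h, nearly all of it CD14. The part of these differences in the fall of the replication genes was not tested.

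Other replication genes were also called lower at 36 h. Of 37, 17 were lower at 36 h than at 4 h and 2 higher (median -0.42), and 22 were lower than at 12 h and 1 higher (median -0.89). Over all genes 20.5% were lower and 18.8% higher than at 4 h, and 10.5% lower and 10.3% higher than at 12 h. UHRF1 fell by 2.11 on the log2 scale from 4 h (edgeR adjusted p = 0.00129). POLD4 rose by 1.01 (edgeR adjusted p = 0.00636) and TOP1, which relaxes DNA, by 0.89 (edgeR adjusted p = 0.0134). POLD4 thus moved against most replication genes in both experiments. At 12 h against 0 h, ASF1B (1.34), a histone chaperone, and CLSPN (1.17) were higher.

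The mitosis genes had other counts in the time course. Of 30 mitosis genes 4 were lower and 4 higher at 36 h against 4 h (13.3% each, against 20.5% and 18.8% of all genes). The median log2 fold change of the 30 was 0.01, where CENPE (1.01) and TTK (0.84) rose and CDC20 (-0.83) and BIRC5 (-0.85) fell. At 36 h against 12 h 6 mitosis genes were lower (20.0%, against 10.5% of all genes) and 0 higher (median -0.45). At 36 h against 0 h 4 were lower (13.3%, against 9.36% of all genes, median -0.40). At 12 h against 0 h 0 of 30 passed (over all genes 3.04% higher, 1.2% lower), with a median of 0.06. At 4 h against 0 h, where 0 replication genes passed, 5 mitosis genes were lower (16.7%, against 3.09% of all genes). Among them TTK stood at -1.29 (SE 0.19, edgeR adjusted p = 0.0110) and CENPE at -1.16 (SE 0.18, edgeR adjusted p = 0.0123). No test compared the 2 lists, so none of these counts shows that they differ.

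**Figure D3:**
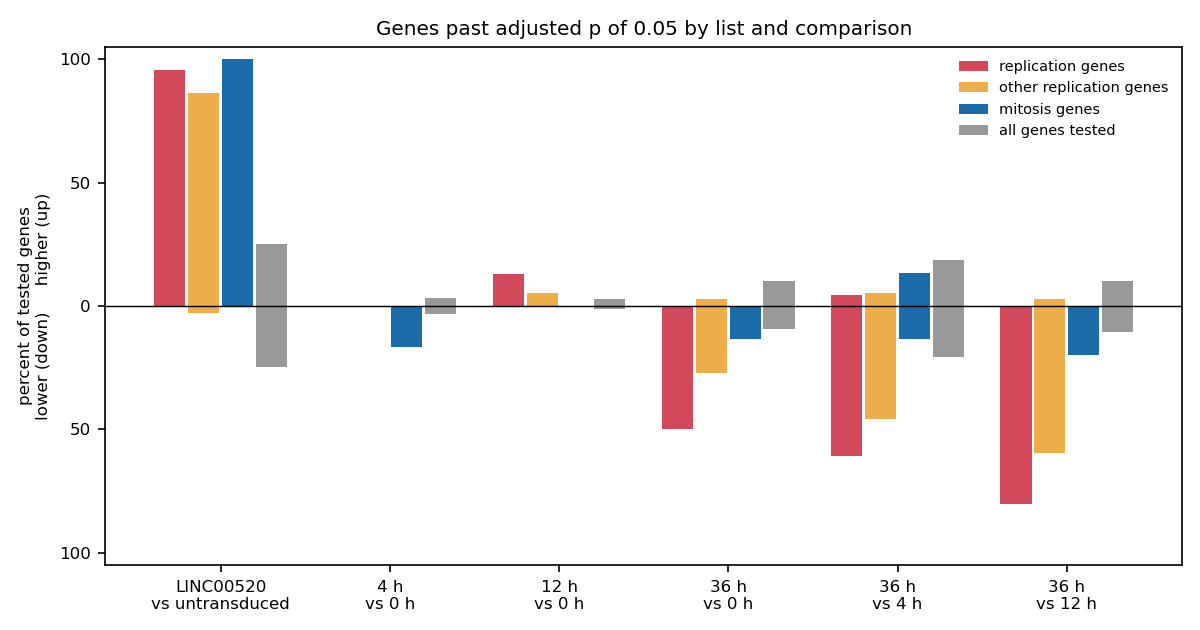
Percent of tested genes called at an adjusted p under 0.05 in each comparison, higher drawn upward and lower downward, for the replication genes, other replication genes, mitosis genes and all genes tested. After LINC00520 transduction most genes of all 3 lists are called higher, and at 36 h against 4 h and 12 h the replication genes are called lower in 60.9% and 80.4% against 13.3% and 20.0% of the mitosis genes.

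Among regulators of the E2F and RB network, the factor E2F2 fell beside E2F1, by 2.59 on the log2 scale from 4 h (SE 0.32, edgeR adjusted p = 0.000749) and by 4.05 from 12 h (SE 0.34, edgeR adjusted p = 0.00114). Of 24 genes 12 were lower and 2 higher at 36 h against 4 h (median -0.50), against 20.5% and 18.8% of all genes. The 2 that rose were RBL2 (0.83, SE 0.15, edgeR adjusted p = 0.00461) and CDKN1B, which encodes the kinase inhibitor p27 (1.00, SE 0.21, edgeR adjusted p = 0.00776). RBL2 was thus lower after LINC00520 transduction, where replication genes rose, and higher at 36 h, where they fell.

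The experiments share no library, so the size of a gene's response can be set side by side. Across the 46 genes the log2 fold change after LINC00520 transduction and that at 12 h against 0 h had a Pearson correlation of 0.787 and a Spearman correlation of 0.784. With 36 h against 4 h the values were -0.540 and -0.545. These are correlations across genes, which are not independent replicates and share the depth behind each row, and no p is given. In these 3 comparisons CCNE2 had log2 fold changes of 1.07, 1.62 and -2.15, CDC6 of 1.08, 1.31 and -1.65, and RFC1 of 0.08, -0.05 and 1.01. RRM2 and CCNE1 had log2 fold changes of 1.08 and 0.98 after LINC00520 transduction and of -0.08 and -0.46 at 36 h against 4 h.

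**Figure D4:**
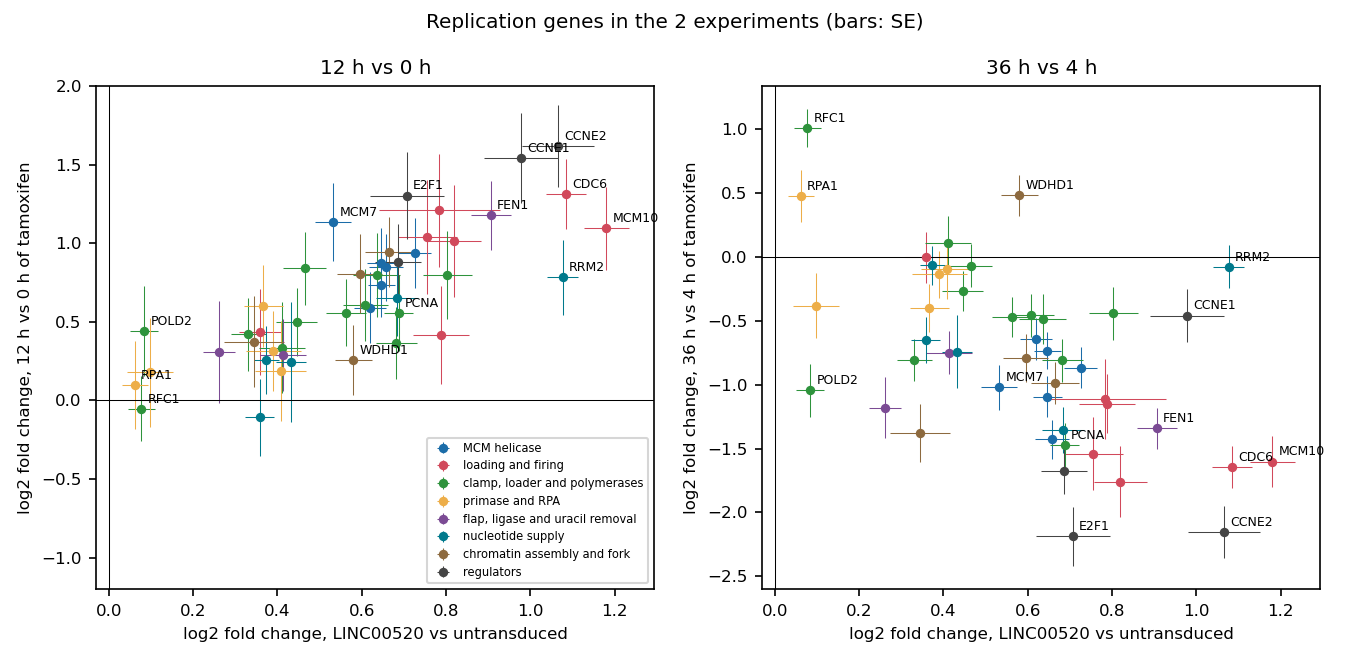
Log2 fold change of each replication gene after LINC00520 transduction (horizontal) against its log2 fold change at 12 h against 0 h (left) and at 36 h against 4 h (right); bars are SE and colours give the role. Genes with large rises on the horizontal axis tend to stand high at 12 h and low at 36 h, while RFC1, RPA1, WDHD1 and RFC4 lie above 0 at 36 h and RRM2 at -0.08.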

How the data were processed

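RNA was measured by polyA-selected sequencing in 13 samples, of which 11 were analysed; the 2 samples of the control long intergenic RNA were not analysed here, and 7 libraries of the over-expression table that matched no label were not used. The authors deposited, for each gene row and library, an estimated count of fragments and FPKM, made with CASAVA 1.4, TopHat and Cuffdiff on hg19, per the submitters' processing notes. Other versions, the annotation and the strand setting are not given in the sources used here. The deposited tables of calls hold p-values and q-values and a log2 fold change per comparison; in the deposited time-course table that column held values beyond the range of a log2 fold change and was read as a score, for its sign only.

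Between 92.4% and 99.9% of the estimated counts in a library were whole; the others were rounded. Rows with an FPKM of at least 1 in 2 libraries (over-expression) or 1 library (time course) and an OK status were kept, which left 12790 and 15572 genes. The main test was edgeR 4.0.16 (quasi-likelihood, TMM factors) in R 4.3.3, with 1 fit per experiment, and p-values were adjusted by Benjamini-Hochberg over all genes tested at a threshold of 0.05. Residual degrees of freedom were 3 and 2, and the common biological coefficient of variation was 0.0249 and 0.162. On simulated data with 100 genes changed 1.5-fold, the test recovered 95% of them for LINC00520 against untransduced (12790 genes) and 14% for 36 h against 4 h (15572 genes); with 3-fold changes it recovered 98% and 92%. Alternatives were no scaling, upper-quartile factors, DESeq2 1.42.0, limma 3.58.1 on log2(FPKM + 1) and log2(FPKM + 0.1), other filters, each library left out, a replicate block and the authors' deposited calls. Depth was 12.6 to 52.3 M fragments a library, which bounds the precision of low counts.

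The members, lists and tests were chosen with earlier results of these data known. Named were the 4 called members with the highest and the 4 with the lowest log2 fold change in each comparison, every member where its role was described, per-library values for the highest and lowest of each role (others, such as CDC6, PCNA, CCNE2 and RRM2, were added after their values were seen), and up to 2 genes with the smallest p in each direction of each other list. Promoters shown were those with a motif and the 4 largest rises. Some genes of the other lists are not reported here.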

Additional observations from a re-analysis of the deposited data

How the results depend on the processing

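After LINC00520 transduction the count of higher genes (45) lay between 43 and 44 when 1 library was left out and the count of lower genes stayed at 0. For 36 h against 4 h, the count of higher genes (2) was 1 with no scaling, with limma on log2(FPKM + 1) or log2(FPKM + 0.1) and with no filter. Over all genes those fits called 1861, 2331 and 2235 of 15572 and 3597 of 28470 higher. For 4 h against 0 h (0 higher, 0 lower) 1 was higher with no filter, 1 was higher and 1 lower in the authors' deposited calls, and 0 to 7 were higher and 0 to 2 lower with 1 library left out. For 12 h against 0 h (6 higher) the count was 11 with DESeq2 and 1 and 0 with limma at pseudocounts of 1 and 0.1. It was 16 with no filter and 17 in the authors' deposited calls. For 36 h against 0 h (23 lower) it was 39 with no scaling, 9 and 8 with limma and 11 to 33 with 1 library left out; of higher genes (0) there were 1 in the authors' deposited calls and 0 to 2 with 1 library left out. For 36 h against 12 h (37 lower) it was 20 with limma on log2(FPKM + 0.1) (249 of all 15572 genes). Of higher genes (0) there was 1 with DESeq2 (1788 of 15572) and 1 with the stricter filter (1393 of 11866). The authors' deposited calls also held 1 (9.95% of all genes). Leaving out a 4 h library raised the calls over all genes, higher and lower, in all 5 time-course comparisons. Leaving out a 36 h library lowered them in every comparison with 36 h. Counts with 1 time-course library left out are therefore not given. The cause of these shifts was not tested.

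Deviations of same-numbered libraries correlated at -0.0601 (over-expression) and 0.102 (4 h and 36 h) across genes, with 2 pairs each. These values gave no sign that the replicate numbers pair the libraries, but so few pairs cannot exclude it. With a replicate block 43 genes were higher after LINC00520 transduction, and 2 were higher and 28 lower at 36 h against 4 h. No log2 fold change of a called member changed sign under the settings tried. In the time course 0 h and 12 h rest on 1 library each, and the common biological coefficient of variation was 0.162 against 0.0249 in the over-expression experiment. Depth was 12.6 to 52.3 M fragments a library, and at 36 h GINS4 rested on 26 and 19 fragments and E2F1 on 47 and 27.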

Other observations

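The level of LINC00520 and the direction of the replication genes differed between the experiments, whose tables were normalized separately. The LINC00520 row (linc-TBPL2-2) stood at 46.2 and 46.0 CPM in the transduced cells. There 45 of 47 replication genes were higher than in untransduced cells and 0 lower, against 25.2% and 24.8% of all genes. The row stood at 162 and 202 CPM at 36 h of tamoxifen. Of 46 replication genes 28 were lower there than at 4 h and 2 higher, against 20.5% and 18.8% of all genes. At 12 h the row stood at 14.7 CPM. Then 6 replication genes were higher than at 0 h and 0 lower, against 3.04% and 1.2% of all genes. No test related the level of LINC00520 to these genes.

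In the authors' deposited table of calls 17 replication genes were higher at 12 h than at 0 h and 0 lower, against 4.36% higher and 2.65% lower of all its 17726 genes with an OK status. Among the 17 were CCNE1, CDC6, E2F1, FEN1 and MCM7. CCNE2, which had the highest log2 fold change of the 46 genes in that comparison by edgeR (1.62), was not among the 17. The authors' deposited table also called RPA1 higher at 36 h against 4 h, a gene that missed the threshold with edgeR (log2 fold change 0.48, adjusted p = 0.0953, both 36 h libraries above both 4 h libraries).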
